A study of Arabidopsis thaliana with 8 samples.

Results

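The 47 genes described here are nuclear genes of Arabidopsis thaliana that encode parts of the photosynthetic apparatus, out of 27444 nuclear protein-coding genes in the gene table used. They were taken as a fixed list of gene identifiers: 21 chlorophyll-binding antenna genes, 12 genes of photosystem I subunits, 10 of photosystem II subunits and 4 of the Rubisco small subunit. The list was chosen with earlier results of these data known. All 47 genes were found in the table. The series is a ChIP-seq study of whole seedlings, harvested 7 days after germination, in which GFP fusion proteins were pulled down with a resin that binds GFP. One line carries the guanylate-binding GTPase AtGBPL3 fused to GFP, driven by the AtGBPL3 promoter in the gbpl3-5 mutant (gbpl3-5/pAtGBPL3::AtGBPL3genomic-GFP, comp2). The other carries histone H2B fused to GFP in Col-0 (Col-0/p35S::AtH2B-GFP), driven by the strong and broadly active 35S promoter. Seedlings grew in long days on medium with sucrose, and a whole seedling mixes all cell types, so fewer cells with a mark and less of the mark in each cell cannot be told apart. Each fusion has 2 replicates of the pulldown, and each pulldown has a peak list. The input samples were not used here. Whether the replicates came from separate batches of seedlings is not stated, so agreement between them may be technical.

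Photosynthesis in plants joins products of the chloroplast genome with proteins encoded in the nucleus. Light-harvesting proteins (LHCA at photosystem I, LHCB at photosystem II) bind chlorophyll and pass excitation energy to the reaction centres, while the PSA and PSB proteins build and dock onto those centres. Rubisco fixes carbon dioxide, and its small subunit comes from a nuclear gene family. In green seedlings grown in light many of these nuclear genes are known to be among the most strongly transcribed. H2B is a core histone of the nucleosome, so a peak for H2B-GFP marks a stretch of chromatin where the peak caller found the pulled-down DNA above the background it was set against.

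The H2B lists differed in length, with 1361 peaks in replicate 1 and 8608 in replicate 2 on the nuclear chromosomes, and the photosynthesis genes followed this difference. In replicate 1, 3 of the 47 genes (6.38%) had a peak in the gene or within 1 kb of it, beside 5.99% of all protein-coding genes. In replicate 2, 28 of the 47 (59.6%) had such a peak, beside 34.8% of all protein-coding genes. With either list the count was 29 (61.7%, beside 36.0%), and with both lists it was 2 (4.26%, beside 4.84%). Inside the gene itself, replicate 1 had a peak at 3 of the 47 genes, where 4.07% of all protein-coding genes had one, and replicate 2 had a peak at 22 (46.8%, beside 25.2%). The same 22 genes (46.8% of the 47) held the summit of a replicate 2 peak, beside 24.6% of all protein-coding genes. This is usual, since 6915 of all protein-coding genes had a replicate 2 peak in the gene and 6758 held a summit.

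Photosynthesis genes are short, with a median length of 1419 bp and a range of 720 to 3207 bp, and short genes were hit less often. With all protein-coding genes in 20 equal bins by length, 16.4% of the bin with a median of 654 bp and 48.0% of the bin with a median of 6392 bp had a replicate 2 peak in the gene or within 1 kb. Among other protein-coding genes within 10% of the length of each member, 31.0% had a replicate 2 peak in the gene or within 1 kb, and 21.2% had one in the gene. The photosynthesis genes therefore stood 28.55 percentage points above genes of like length in the replicate 2 list by the wider window and 25.6 points above by the gene alone. With the replicate 2 list cut to the length of the replicate 1 list, the difference by the wider window was 8.15 points. It rested on 7 photosynthesis genes, and in 3 of them the summit lay in the gene. No share over all genes is given for the count of 3, so it cannot be called low or high. In replicate 1 the share of like-length genes was 4.83%, and the difference was 1.55 points. It turned to -0.70 points with 2 kb on either side and to -0.58 points with a −log10 q of at least 2 (q is the false discovery rate the authors' peak caller gave each peak, so a larger −log10 q is a stronger call), so the replicate 1 list showed no stable difference. These shares are descriptions of 2 lists. Members are not replicates, so no test was made, and the depth of sequencing behind the lists is unknown. The windows of the 47 genes held on average 1.28 other protein-coding genes, and those of like-length genes 1.21. Of the 47 genes, 8 lay within 3 Mb of a centromere midpoint (17.0%, and 11.5% of like-length genes), and among the 39 others 24 had a replicate 2 peak (61.5%), 28.45 points above like-length genes outside the same regions.

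**Figure D1:**
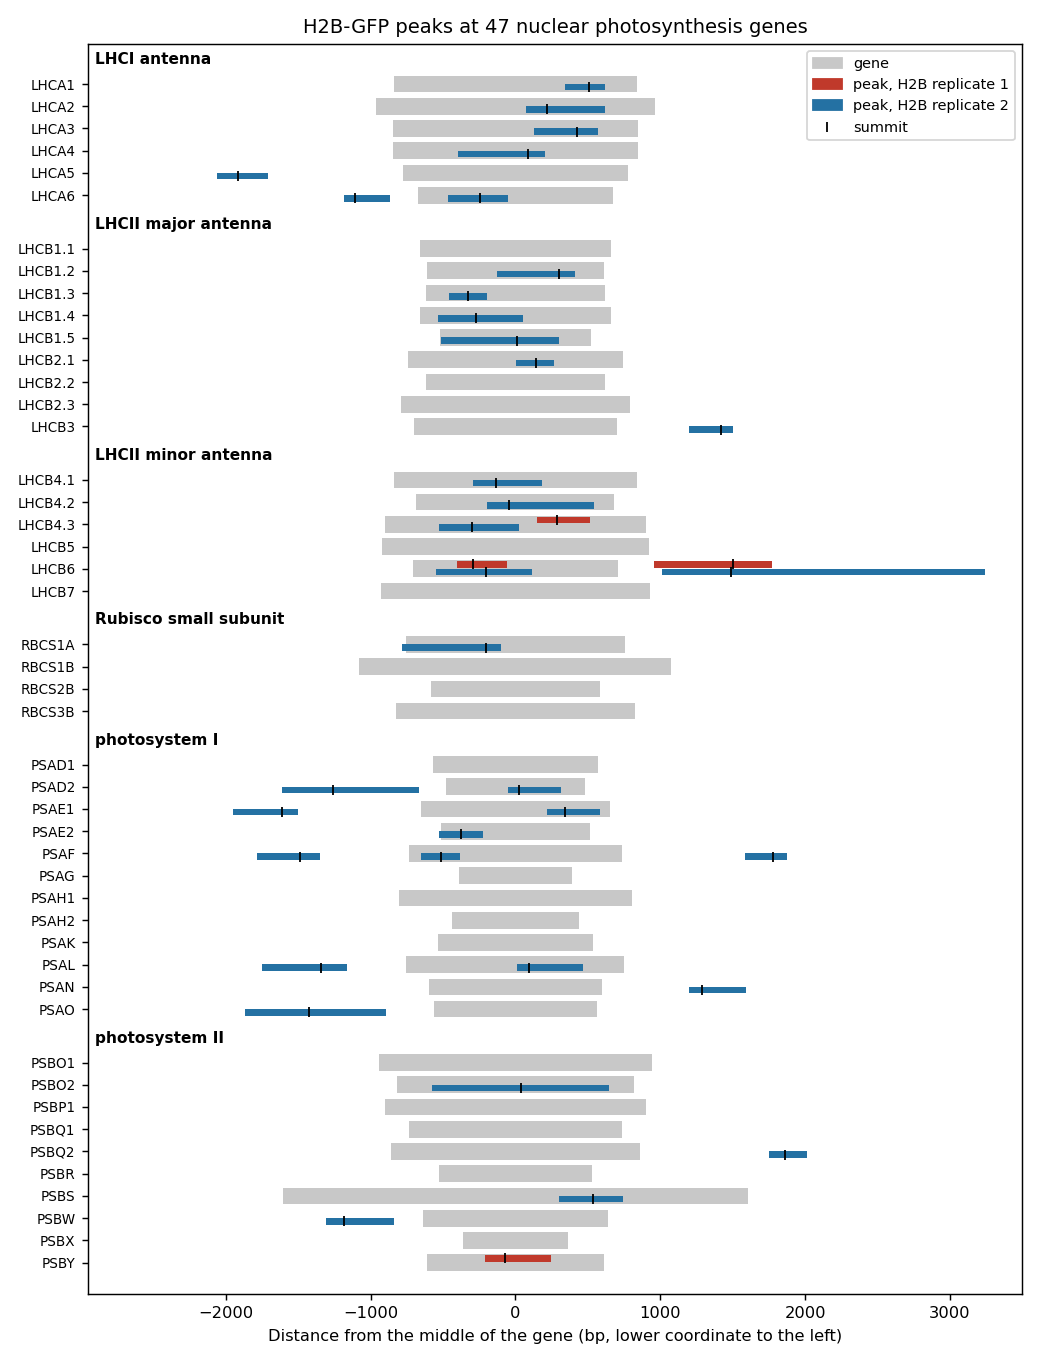
Positions of H2B-GFP peaks at each of the 47 photosynthesis genes, by subgroup. The x axis gives the distance from the middle of the gene in bp, with the lower genome coordinate to the left; grey bars are genes, red bars are replicate 1 peaks, blue bars are replicate 2 peaks and black ticks are summits. Peaks of replicate 2 lie within 22 of the genes and peaks of replicate 1 within 3.

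Most genes with a peak were antenna genes. Of the 21 antenna genes, 14 (66.7%) had a replicate 2 peak in the gene, where 22.4% of like-length genes had one. In replicate 1, 2 of the 21 had a peak in the gene, beside 3.26% of like-length genes. Peak positions below are those of the deposited intervals on TAIR10, counted from 1. The fold of a peak is the authors' linear enrichment ratio at the summit, over a background that may be the local one or the input, since the use of an input as control is not stated, and its rank is the percentage of peaks in the same list with a lower fold.

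All 6 genes of the photosystem I antenna had a replicate 2 peak in the gene or within 1 kb, where like-length genes had 33.6%. In the gene itself 5 had one, where like-length genes had 23.6%. LHCA1 (AT3G54890) and LHCA4 (AT3G47470), whose products pair in the antenna belt, had peaks at chr3:20340679-20340956 (fold 1.89) and chr3:17493792-17494392 (fold 1.69). These covered 16.6% of LHCA1 and 35.5% of LHCA4. The other pair of the belt, LHCA2 (AT3G61470) and LHCA3 (AT1G61520), had peaks at chr3:22746550-22747096 (fold 1.80, 28.3% of the gene) and chr1:22700691-22701132 (fold 1.73, 26.03%). LHCA6 (AT1G19150), a minor form known to link photosystem I to the NDH complex, had a peak over 30.7% of the gene at chr1:6612838-6613249 with a fold of 1.61. A further peak stood 196 bp from LHCA6 with its summit in the neighbour AT1G19140. LHCA5 (AT1G45474), the partner of LHCA6 in that link, had none in the gene. Its nearest peak lay 933 bp away at chr1:17177964-17178317, with a fold of 2.13 and the summit in AT1G45403. Replicate 1 had no peak in or within 1 kb of any of the 6 genes, where like-length genes had 5.30%.

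LHCB1, LHCB2 and LHCB3 form the trimers of the major antenna of photosystem II. In replicate 1 none of these 9 genes had a peak in the gene (like-length genes 2.96%). In replicate 2, 5 of the 9 had one (like-length genes 20.3%). LHCB1.5 (AT2G34420) was covered over 78.2% of its length by a peak at chr2:14522533-14523349 (fold 1.84), the largest cover among the 47 genes. Next to it LHCB1.4 (AT2G34430) had its own peak at chr2:14524727-14525311 with a fold of 1.83, over 44.6% of the gene. In the LHCB1 cluster of chromosome 1, LHCB1.2 (AT1G29910) had a peak at chr1:10472760-10473301 (fold 1.62, 44.3% covered) and LHCB1.3 (AT1G29930) one at chr1:10478043-10478301 (fold 1.87, 21.1%). LHCB1.1 (AT1G29920), which lies between them, had none, and its nearest peak was 1355 bp away. Of the LHCB2 genes, LHCB2.1 (AT2G05100) had a peak at chr2:1823741-1824003 (fold 1.71, 17.6%), while LHCB2.2 (AT2G05070) and LHCB2.3 (AT3G27690) had none within 1 kb. LHCB3 (AT5G54270) had a peak only beside the gene, 495 bp away, with the summit in the myosin gene AT5G54280. The LHCB1 and LHCB2 copies are similar in sequence, and how reads that fit several copies were placed is not given in the sources used here, so the assignment of a peak to a single copy is uncertain.

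The minor antenna proteins sit as monomers between the trimers and the photosystem II core, and 4 of their 6 genes had a replicate 2 peak in the gene (like-length genes 24.3%). This subgroup also held 2 of the 3 genes with a replicate 1 peak, where 3.55% of like-length genes had one in the gene. LHCB6 (AT1G15820) was the only one of the 47 genes where peaks of both replicates overlapped inside the gene. Its replicate 1 peak was at chr1:5446769-5447114 (fold 1.90, −log10 q 2.87) and its replicate 2 peak at chr1:5446622-5447284 (fold 1.63, −log10 q 2.11), covering 24.4% and 46.7% of the gene. LHCB4.3 (AT2G40100) was in both lists too, but its peaks did not touch each other. Replicate 1 had chr2:16746672-16747037 (fold 1.71, −log10 q 1.33) and replicate 2 had chr2:16745998-16746552 (fold 1.70, −log10 q 3.24). LHCB4.1 (AT5G01530) had the highest −log10 q of all peaks within the 47 genes, 6.09, at chr5:209415-209887 with a fold of 2.1 that ranked above 91.5% of the list. LHCB4.2 (AT3G08940) was covered over 53.9% of its length at a fold of 1.63. LHCB5 (AT4G10340) and LHCB7 (AT1G76570) had no peak in either list.

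In replicate 1, none of the 12 genes of photosystem I subunits had a peak in the gene (like-length genes 2.185%). In replicate 2, 5 of the 12 had one, where like-length genes had 17.8%. They included both genes of PSAE, a stromal subunit at the ferredoxin docking site. PSAE1 (AT4G28750) had chr4:14203628-14203992 at a fold of 1.53, the lowest of all peaks within the 47 genes, and its summit also lay in the overlapping gene AT4G28755. PSAE2 (AT2G20260) had chr2:8736724-8737026 at a fold of 1.99, over 28.3% of the gene. For PSAD, the other ferredoxin-docking subunit, PSAD2 (AT1G03130) had a peak at chr1:753729-754097 (fold 1.59, 38.6% covered) while PSAD1 (AT4G02770) had none, with the nearest peak 23271 bp away. PSAF (AT1G31330), which docks plastocyanin on the lumen side, had a peak over 18.5% of the gene (chr1:11214756-11215026, fold 1.85) and 2 further peaks within 1 kb. PSAL (AT4G12800), needed for docking of the mobile antenna, had chr4:7522016-7522476 at a fold of 1.86, over 30.6% of the gene. PSAN (AT5G64040) and PSAO (AT1G08380) had a peak only beside the gene, 601 and 327 bp away. PSAG (AT1G55670), PSAK (AT1G30380), PSAH1 (AT3G16140) and PSAH2 (AT1G52230) had none.

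Among the photosystem II subunit genes, a replicate 2 peak lay in 2 of the 10 genes (20%, like-length genes 22.1%), and a replicate 1 peak in 1 (like-length genes 3.24%). With 1 kb on either side the replicate 2 count was 4 (40%, like-length genes 31.9%), and with either list it was 5 (50%, like-length genes 32.9%). PSBO2 (AT3G50820), a copy of the subunit that stabilises the manganese cluster of water oxidation, was covered over 75.1% of its length at chr3:18891112-18892338, by an interval with 4 summits and a highest fold of 2.24. The other copy, PSBO1 (AT5G66570), had no peak within 1 kb, and its nearest was 1918 bp away. PSBS (AT1G44575), a sensor of photoprotective quenching and the longest of the 47 genes, had chr1:16872124-16872565 at a fold of 2.19, over 13.8% of the gene. PSBY (AT1G67740), a small membrane subunit, had a replicate 1 peak at chr1:25394432-25394888 (fold 1.74, −log10 q 1.44, 37.5% of the gene) and no replicate 2 peak within 1 kb. PSBQ2 (AT4G05180) and PSBW (AT2G30570) had a replicate 2 peak only beside the gene, 888 and 199 bp away. The extrinsic subunit genes PSBP1 (AT1G06680) and PSBQ1 (AT4G21280), and PSBR (AT1G79040) and PSBX (AT2G06520), had none in either list.

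Rubisco small subunit genes had a replicate 2 peak in 1 of 4, where like-length genes had 22.7%. RBCS1A (AT1G67090) was covered over 43.6% of its length by chr1:25048130-25048815, with a fold of 1.59 that ranked above 17.7% of the list. The cluster of RBCS1B (AT5G38430), RBCS2B (AT5G38420) and RBCS3B (AT5G38410) on chromosome 5 had no peak in either list, and the nearest replicate 2 peak was 15270, 18519 and 21948 bp away. As with LHCB1, these copies are similar in sequence, and the treatment of reads that fit several copies is not given.

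**Figure D2:**
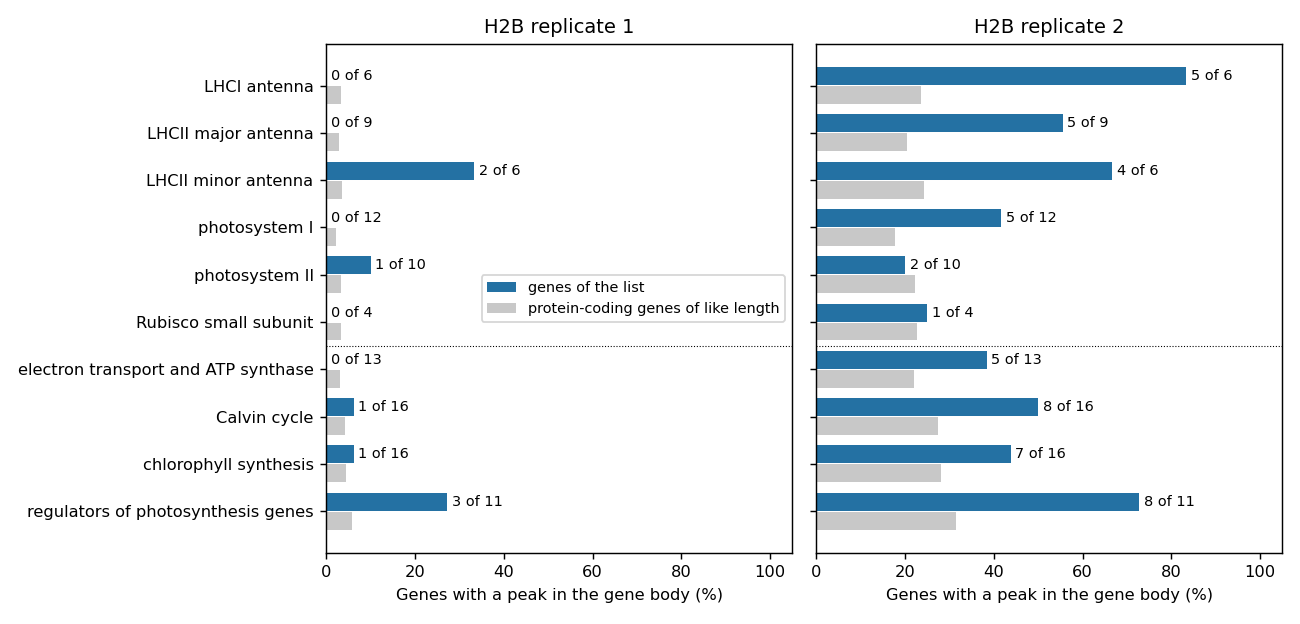
Percentage of genes with an H2B-GFP peak in the gene body, for the 6 subgroups of photosynthesis genes (above the dotted line) and 4 further photosynthesis lists (below it), in replicate 1 (left) and replicate 2 (right). Blue bars are the genes of each list with their counts, and grey bars are other protein-coding genes within 10% of their length. In replicate 2 the antenna lists reach 83.3, 55.6 and 66.7%, and photosystem II stands at 20%. Of the further lists, the regulators reach 72.7% and the Calvin cycle genes 50%.

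The extent, place and width of the peaks were set beside those at other genes of like length. The median cover of the 22 genes with a replicate 2 peak was 30.6% (range 13.8 to 78.2%), and that of like-length genes with a peak was 32.5%. Over 50% was covered in 3 of the 22 genes (13.6%), LHCB1.5, PSBO2 and LHCB4.2, and in 22.3% of like-length genes with a peak. Summits of 17 of the 22 peaks (77.3%) lay in the middle 50% of the gene, where 72.0% of those in like-length genes did. The exceptions were LHCA1, LHCB1.3, PSAE1, PSAE2 and PSAF, with summits closer to an end. The gene table gives no strand, so the start of transcription cannot be told from the end. Peaks with the summit in a photosynthesis gene had a median width of 467 bp, beside 443 bp in like-length genes. Another gene of the table overlapped 17 of the 47 genes, a count without a share over all genes beside it. A peak cannot be given to a single gene where such an overlap holds it. Of the 22 replicate 2 peaks within the genes, that of PSAE1 alone had its summit in another protein-coding gene as well, AT4G28755.

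**Figure D3:**
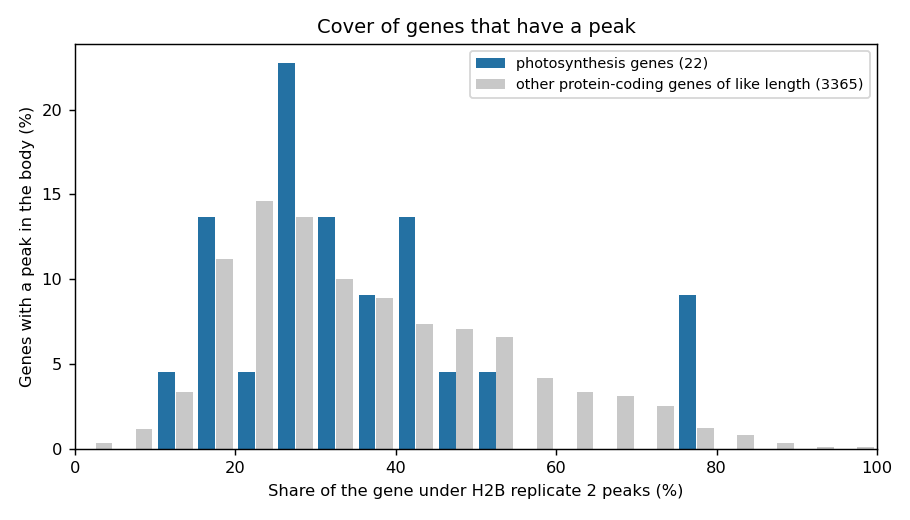
Share of the gene under H2B-GFP replicate 2 peaks (x axis, %), for genes with a peak in the body; the y axis gives the percentage of genes in each step of 5%. Blue bars are the 22 photosynthesis genes, and grey bars are other protein-coding genes of like length, averaged over the 22. The median is 30.6% for the photosynthesis genes and 32.5% for the others, and LHCB1.5 and PSBO2 stand apart at 78.2 and 75.1%.

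Folds of the peaks within photosynthesis genes lay around the middle of the replicate 2 list. The 22 replicate 2 peaks within the genes had folds of 1.53 to 2.24 with a median of 1.76, and all 8608 peaks had a median of 1.755. Their median rank by fold was 51.8%, beside 53.9% for peaks in like-length genes. The 3 replicate 1 peaks within the genes had folds of 1.71, 1.74 and 1.90, and the median of that list was 1.88. When only the 1361 replicate 2 peaks with the highest −log10 q were used, as many as replicate 1 holds, 7 photosynthesis genes had a peak in the gene or within 1 kb (7.05% of all protein-coding genes did). In 3 of these photosynthesis genes, LHCB4.1, PSBO2 and PSBS, the summit lay in the gene, a count without a share over all genes beside it.

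**Figure D4:**
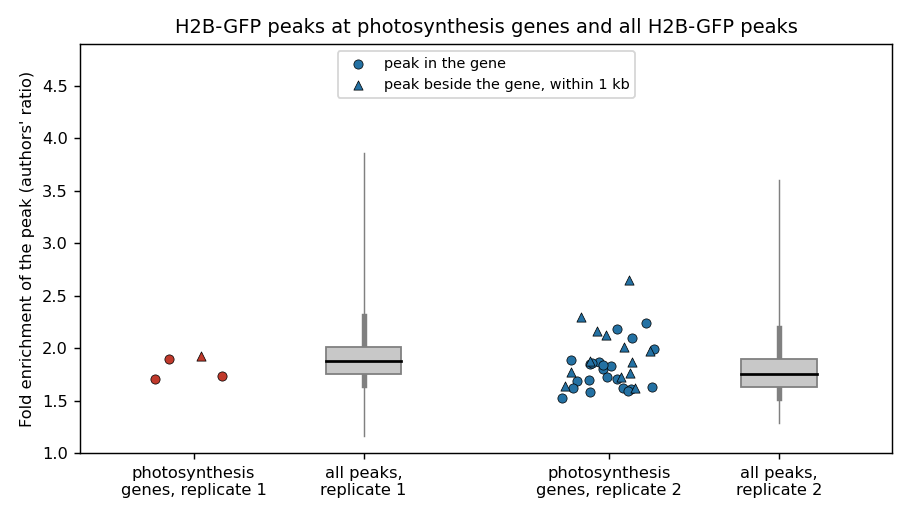
Fold enrichment of H2B-GFP peaks (y axis, the authors' linear ratio) at photosynthesis genes, with circles for peaks in the gene and triangles for peaks beside it, next to all peaks of the same replicate. Boxes span the 25 to 75% quantiles with the median as a line, thick bars reach from 5 to 95% and thin lines to the lowest and highest fold. Peaks within the genes lie between 1.53 and 2.24 in replicate 2, where the median of the list is 1.755.

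Peaks in both replicates, in the gene or within 1 kb, were found at 2 of the 47 genes (4.26%). This is near the 4.84% of all protein-coding genes and the 3.92% of like-length genes, and the 2 lists differed in length. Of the 3 genes with a replicate 1 peak, 2 also had one in replicate 2 (66.7%), and among all protein-coding genes with a replicate 1 peak 80.7% did. Of the 28 with a replicate 2 peak, 7.14% also had one in replicate 1, and among all protein-coding genes with a replicate 2 peak 13.9% did. With the replicate 2 list cut to the length of the replicate 1 list, 1 of the 47 genes was in both, beside 2.015% of all protein-coding genes. What limited the sharing was not tested. The peaks within the 47 genes had −log10 q values from 1.33 to 2.87 in replicate 1 and from 1.33 to 6.09 in replicate 2, and the lowest −log10 q of the whole lists was 1.303 in replicate 1 and 1.301 in replicate 2.

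Peaks beside the photosynthesis genes were sorted by the place of their summit. Of the 35 replicate 2 peaks in the genes or within 1 kb, 13 did not reach the gene, and 11 of these 13 had the summit in another protein-coding gene. This is not particular to these peaks, since 92.8% of all replicate 2 summits lay in protein-coding genes. No peak was counted for more than 1 photosynthesis gene. Of the 6 genes with a replicate 2 peak only beside them, 5 (LHCA5, LHCB3, PSAN, PSAO and PSBW) had it in a neighbour, and PSBQ2 had it outside protein-coding genes. Of the 5 genes whose peaks had the highest folds, 3 had that peak beside the gene, and in PSBO2 (2.24) and PSBS (2.19) it lay in the gene. Beside LHCB6, 303 bp away, a peak at chr1:5448183-5450413 had a fold of 2.65, and its summit lay in AT1G15830. Beside PSAL a peak at chr4:7520262-7520847 had a fold of 2.295, with its summit outside protein-coding genes. Beside PSAD2 a peak at chr1:752171-753116 had a fold of 2.17, with its summit in AT1G03120 (RAB28). The 19 genes without a replicate 2 peak were 1063 to 28908 bp from the nearest one, with a median of 4273 bp.

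Other photosynthesis genes were counted by the same rule in 4 lists with 56 genes. A replicate 2 peak lay in 5 of 13 genes of electron transport and ATP synthase (like-length genes 22.0%), in 8 of 16 Calvin cycle genes (27.4%), in 7 of 16 genes of chlorophyll synthesis (28.0%) and in 8 of 11 genes of regulators and photoreceptors (31.6%). Together 28 of the 56 (50%, like-length genes 27.1%) had one, 22.9 points above like-length genes. The 47 genes, which are shorter, stood 25.6 points above theirs (46.8%, like-length genes 21.2%). Replicate 1 had a peak in 5 of the 56 (8.93%, like-length genes 4.34%). These 5 were the only genes of the 4 lists with peaks in both replicates. In the gene or within 1 kb, 5.09% of like-length genes had peaks in both. FBA2 (AT4G38970), a plastid aldolase, had peaks in the gene at folds of 1.91 and 1.57 in replicates 1 and 2, which did not overlap. GSA1 (AT5G63570), an enzyme of the first steps of chlorophyll synthesis, had overlapping peaks with folds of 2.01 and 1.85, and the replicate 2 peak covered 88.9% of the gene. PIF1 (AT2G20180) and PIF4 (AT2G43010), transcription factors that bind phytochromes, had overlapping peaks in both replicates, with folds of 1.74 and 1.66 at PIF1 and of 2.13 and 1.73 at PIF4. CRY1 (AT4G08920), a blue light receptor, had folds of 1.69 and 1.76 at places in the gene that did not overlap.

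GBPL3-GFP had no peak in or within 1 kb of any of the 47 genes, in lists of 87 and 81 peaks, where H2B-GFP had a peak at 29 in lists of 1361 and 8608. Of all protein-coding genes 0.117% had a GBPL3 peak by this rule, and the share of like-length genes would give 0.0447 of 47 genes. With lists of this length a lack of GBPL3 at photosynthesis genes was not detectable. The nearest GBPL3 peak to any of them was 67587 bp away in replicate 1 and 45510 bp in replicate 2.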

How the data were processed

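ChIP-seq peak lists of GFP pulldowns were used. The submitters' processing notes name the aligner BWA (0.7.12), the peak caller MACS2 (2.1.0) and the build TAIR10. Neither the options nor the use of an input as control is stated there. Each list was deposited under 1 sample. Per the deposited values, column 7 holds the fold (a linear ratio), columns 8 and 9 the −log10 p and −log10 q, and column 5 the authors' score, a whole number made from 10 times that −log10 q without rounding up.

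Lines with the same interval were joined into 1 peak with the highest fold, the highest −log10 q and the summit that goes with this q. A gene was called when a peak overlapped it, or 1 kb on either side, by at least 1 bp. Genes came from a RefSeq table of TAIR10.1 without strand or exons, from which no coordinates are given; 92.8% of replicate 2 summits lay in protein-coding genes, and 64.4% after a move of 10 kb. For each member the share was also taken over protein-coding genes within 10% of its length. The counting was tested on simulated data. No read counts were used, so depth is unknown, and regions and genes are not replicates, so no p-value is given. The members and lists were chosen with earlier results of these data known. Genes named are all members with a replicate 1 peak or peaks in both lists, the 10 with the largest cover and the 5 with the highest fold in replicate 2, neighbours that hold a summit, and genes of the other lists with peaks in both; the remaining members are named to account for all. Promoter motifs and protein sequences were planned and are not analysed here. Alternatives were the gene alone, 2 kb, 100 bp of overlap, the summit alone, a −log10 q of at least 2, equal list lengths, other definitions of like length, and genes outside pericentromeres (3 Mb around approximate midpoints). Python 3.11.15, numpy 2.4.6, pandas 2.3.3, scipy 1.17.1 and matplotlib 3.10.9 were used.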

Additional observations from a re-analysis of the deposited data

How the results depend on the processing

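The replicate 2 count of 28 photosynthesis genes was 22 to 32 under the gene alone, 2 kb, 100 bp of overlap, the summit alone and a −log10 q of at least 2, and its difference from like-length genes was 25.6 to 29.1 percentage points. Cut to the length of the replicate 1 list, replicate 2 gave 7 genes, either list 9 and both lists 1, and the difference was 8.15 points. The count with either list rested on replicate 2: leaving out 1 replicate gave 3 to 28 genes, the lower without replicate 2. A −log10 q of at least 2 left 1 gene in replicate 1 and 1 in both lists. The replicate 1 difference of 1.55 points reversed to -0.70 with 2 kb and to -0.58 with the stricter q; the cause was not tested. These differences were added after the data were seen. The share of like-length genes was 33.2% in replicate 2 outside pericentromeres, and with the gene alone 2.98% and 21.2% in replicates 1 and 2, which counts a smaller window. Median cover was 0% with the members that had no peak included. GBPL3 stayed at 0 of 47 with 2 kb. Depth is unknown, and list lengths may move with it. No paired analysis was made, because the input samples were not used and the counts come from peak lists without a test.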

Other observations

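Next to LHCB6, the gene AT1G15830 held the summit of an H2B-GFP peak in both replicates, at chr1:5448125-5448944 (fold 1.93, −log10 q 3.20) in replicate 1 and chr1:5448183-5450413 (fold 2.65, −log10 q 11.1) in replicate 2. The replicate 2 interval was 2231 bp wide with 6 summits, and its fold ranked above 99.5% of the list. Together with the overlapping peaks inside LHCB6, this made a stretch in which both replicates had 2 peaks each. The gene was singled out after its values were seen.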
